A study of Homo sapiens with 6 samples.

Results

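The genes described here are EPAS1, which encodes hypoxia-inducible factor 2 alpha (HIF-2 alpha), the related subunits HIF1A and ARNT, and 7 genes known to respond to low oxygen: ANKRD37, NDRG1, BNIP3L, MXI1, PGK1, PGAM1 and EGLN3. They were chosen by gene symbol in the annotation of the array, with earlier results of these data known. The gene lists used below were also chosen with those results known. Their counts beside those of all genes are therefore description and not a test. Of the 10 genes, 9 had a feature (a set of probes summarised to 1 value) carrying their symbol, out of 14884 genes with a symbol in the table. HIF1A had none and was not analysed here. Here and below, a gene called not measured is one whose symbol no feature carried. Of 53616 features 37518 had no symbol in the annotation used, so probes for such a gene may be among them. MXI1 had 2 features and the other 8 measured genes had 1 each.

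The arrays compared SW620, a colorectal cancer line from a lymph node metastasis, with SW480, a colorectal cancer line from a primary tumour. Both lines were grown as floating spheres in medium without serum but with growth factors, and each was measured on 3 arrays. The study set out to find how the tumour-initiating compartment differs between the lines. Each group is a single established line, and the design text describes its 3 arrays as technical replicates, so the p-values measure the spread between such arrays and not between separate cultures. No array of cells held at low oxygen was analysed here, and the oxygen level of the cultures is not given in the sources used here.

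Hypoxia-inducible factors are pairs of an alpha subunit (HIF-1 alpha or HIF-2 alpha) and the stable partner ARNT, also called HIF-1 beta. In oxygenated cells prolyl hydroxylases, EGLN3 among them, modify the alpha subunits, and the VHL ubiquitin ligase then marks them for destruction. At low oxygen the alpha subunits persist, bind short DNA elements called hypoxia response elements and switch on genes of glycolysis, mitophagy, iron uptake and vessel growth. In the intestine HIF-2 alpha is known from mouse studies as a regulator of iron absorption. The alpha subunits are controlled mainly as proteins, which the arrays did not measure.

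The promoter windows of the genes are shown first because hypoxia response elements share a short core, and the genes can be read against it. RefSeq windows on GRCh38.p14, from 250 bases before to 50 after an annotated start, were found for 7 of the 9 measured genes, 9 windows in all, because MXI1 had 3 starts. NDRG1 and BNIP3L had no window in the table. The core was searched as ACGTG and as GCGTG on both strands. The windows of EPAS1, ANKRD37, PGK1 and the second MXI1 start are printed 5′ to 3′ on the strand of the gene, with matches in capitals.
EPAS1, chr2:46297157-46297456, plus strand: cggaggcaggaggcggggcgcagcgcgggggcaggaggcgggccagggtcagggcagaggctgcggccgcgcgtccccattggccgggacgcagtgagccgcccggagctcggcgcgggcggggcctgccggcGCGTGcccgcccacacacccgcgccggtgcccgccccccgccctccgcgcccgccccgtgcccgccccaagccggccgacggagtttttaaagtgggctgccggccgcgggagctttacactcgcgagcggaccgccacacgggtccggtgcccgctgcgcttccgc
ANKRD37, chr4:185396591-185396890, plus strand: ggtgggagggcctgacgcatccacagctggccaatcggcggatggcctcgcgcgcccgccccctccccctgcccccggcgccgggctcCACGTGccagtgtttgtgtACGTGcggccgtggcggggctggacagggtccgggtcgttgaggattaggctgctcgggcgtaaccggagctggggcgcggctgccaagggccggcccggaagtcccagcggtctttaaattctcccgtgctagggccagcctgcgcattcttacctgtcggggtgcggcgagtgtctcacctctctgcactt
MXI1, chr10:110209981-110210280, plus strand: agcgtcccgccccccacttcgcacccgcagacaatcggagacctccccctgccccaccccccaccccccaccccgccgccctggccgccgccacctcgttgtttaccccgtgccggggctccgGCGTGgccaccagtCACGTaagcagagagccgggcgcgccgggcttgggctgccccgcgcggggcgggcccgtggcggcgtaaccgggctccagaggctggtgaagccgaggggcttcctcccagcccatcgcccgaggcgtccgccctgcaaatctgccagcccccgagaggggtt
PGK1, chrX:78103998-78104297, plus strand: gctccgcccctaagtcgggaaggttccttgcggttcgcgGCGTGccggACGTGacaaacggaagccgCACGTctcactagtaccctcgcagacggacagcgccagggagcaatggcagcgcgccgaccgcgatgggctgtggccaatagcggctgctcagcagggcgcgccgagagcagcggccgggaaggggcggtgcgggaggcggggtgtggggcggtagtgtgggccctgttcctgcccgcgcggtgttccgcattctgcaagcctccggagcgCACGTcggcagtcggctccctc

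Of the 9 windows, 3 held ACGTG on either strand (ANKRD37, PGK1 and MXI1) and 5 held ACGTG or GCGTG, among them that of EPAS1 with a single GCGTG. In all 35116 windows of the table these shares were 21.4% for ACGTG and 48.4% for either form, and in windows of measured genes 23.4% and 56.1%, so the share of 55.6% for either form in the 9 windows is near that background. In ANKRD37 the first 2 matches are the same CACGTG palindrome read on both strands, beginning at positions -162 and -161 from the start, and a further match begins at -143. The window of PGK1 had 4 matches and those of ARNT, EGLN3 and PGAM1 had 0. The PGAM1 window belongs to a start inside the annotated gene, as do 2 of the 3 MXI1 windows. A match describes the letters and is not evidence of binding. ANKRD37 and PGK1, with 3 and 4 matches, differed between the lines in opposite directions, as given with their values. Whether matches go with a difference between the lines was not tested.

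**Figure D1:**
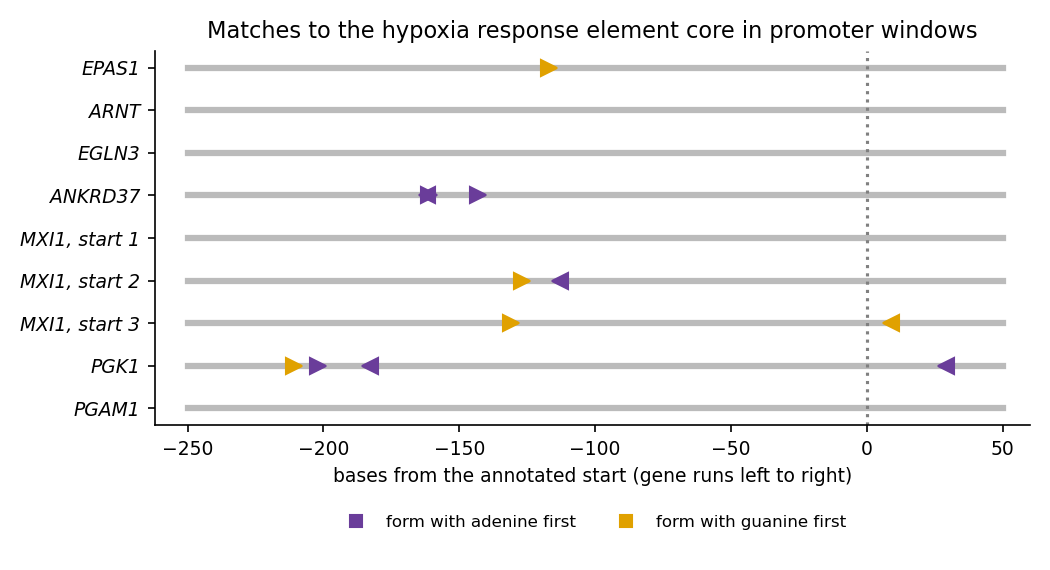
Matches to the hypoxia response element core in the 9 promoter windows (grey bars), by distance in bases from the annotated start. Arrows point along the strand of the match and colours mark its form; PGK1 had 4 matches, ANKRD37 had 3, and ARNT, EGLN3 and PGAM1 had 0.

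The deposited values are log2 expression values made with RMA, a method that subtracts background, equalises arrays and summarises probes. They have no true zero, and levels of different probe sets cannot be set against each other. The median of an array lay between 4.04 and 4.07, and 3.53 and 4.06 were the 25th percentile and the median of all 53616 features. Arrays correlated across features with r from 0.988 to 0.992 within a line and from 0.963 to 0.965 between lines. The labelled cell type was checked with 10 measured epithelial markers. EPCAM, picked with its values known, averaged 9.61 ± 0.10 in SW620 and 9.71 ± 0.08 in SW480. Such values are mean ± SD, n = 3 arrays per line here and below. CDX1 and KRT20 averaged below the median feature in both lines. In SW620 and SW480 CDX1 stood at percentiles 39.6 and 41.9 of all features and KRT20 at 49.96 and 48.6. CEACAM5 lay below the median feature in SW480 only (3.93), and GPA33 was little above it (4.47 in SW620, 4.48 in SW480). The rest of these markers lay above it in both lines. CDX1, KRT20 and GPA33 were named after their values were seen. Of these 10 markers 4 rose in SW620 (CEACAM5 by 2.42, VIL1 by 0.62, KRT19 by 0.51 and KRT8 by 0.40), CDX2 fell by 1.54 and 5 did not pass the limma test used throughout. Of 3 measured fibroblast markers 1 rose (LUM), and the array means of the 3 ran from 5.16 to 5.24 in SW620 and from 3.92 to 4.19 in SW480. Of 5 measured leukocyte markers 3 rose (LCP1, LYZ and CD68) and LAPTM5 fell, with array means from 6.13 to 6.17 in SW620 and from 4.83 to 4.88 in SW480, while the defining PTPRC and CD3E were not measured. The shares called were 50%, 33.3% and 80% for the epithelial, fibroblast and leukocyte markers, against 35.6% of all genes. The part of these markers in the results was not tested. Because each sample is a bulk extract, fewer cells expressing a gene and less RNA per cell cannot be told apart.

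Of the 9 measured genes, 5 fell in SW620 relative to SW480, 2 rose and 2 did not pass the test. The test was limma's moderated comparison with Benjamini-Hochberg adjustment over all 14884 genes at an adjusted p of 0.05. EPAS1 fell most, followed by ANKRD37, NDRG1, MXI1 and BNIP3L, while the glycolytic genes PGK1 and PGAM1 rose slightly. Over all genes 35.6% passed this test, 19.5% lower and 16.0% higher in SW620. Averaged over all 6 arrays, all 9 genes were brighter than the median feature. EPAS1 (3.18 in SW620, 7.42 in SW480) and NDRG1 (4.01 and 5.50 in the same order) were so only through SW480. Among the 9475 genes chosen by that average 49.8% passed, 27.4% lower and 22.5% higher in SW620. That average also takes in genes through the line where they are high, so these shares are no independent background. The median difference of the 9 genes was -0.66 on the log2 scale and that of all genes 0.01. In 6 of the 9 genes the arrays of the lines did not overlap, against 45.7% of all genes.

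**Figure D2:**
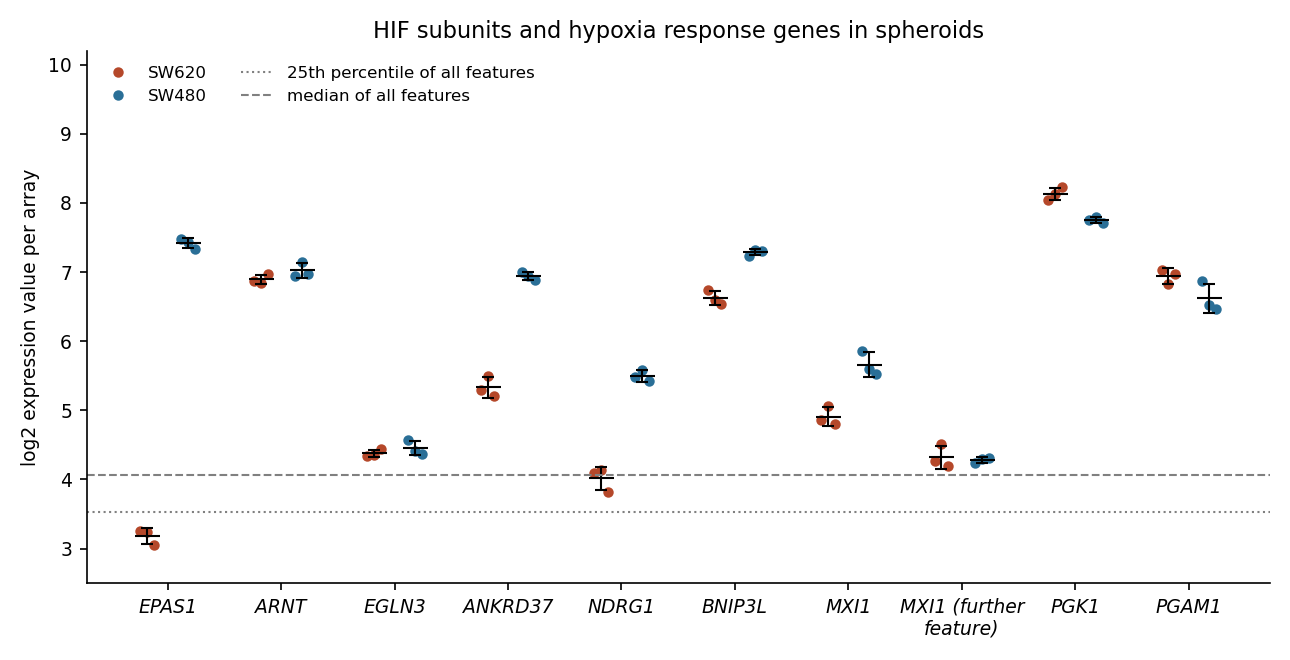
Log2 expression value of each measured gene on each array (points), with mean ± SD over 3 arrays (black), SW620 left of SW480. Dashed and dotted lines mark the median and the 25th percentile of all features; EPAS1 lies below both in SW620 (3.05 to 3.25) and well above both in SW480 (7.34 to 7.47).

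EPAS1 was high in SW480 spheroids and near the floor of the arrays in SW620 spheroids. Its values were 3.25, 3.24 and 3.05 in SW620, against 7.47, 7.44 and 7.34 in SW480. Every SW620 array lay more than 4 log2 units below every SW480 array, the narrowest gap being 4.09. The difference was -4.24 (standard error 0.089, 95% confidence interval -4.43 to -4.04; limma adjusted p = 2.36e-12), nominally 18.9-fold lower, and it was the 8th lowest of the 14884 differences. The SW620 mean stood at percentile 7.04 of all features and the SW480 mean at percentile 89.3. The SW620 mean of 3.18 lies below the 25th percentile of all features, and RMA compresses folds at such low values. With that percentile taken as the lowest measurable level, EPAS1 was at least 14.8-fold lower in SW620. EPAS1 is best known for its high level in endothelial cells, and none of 8 measured endothelial markers differed in limma's test. Averaged over those 8 markers, the arrays ran from 3.70 to 3.81 in SW620 and from 3.67 to 3.73 in SW480. These averages lie below the median feature in both lines, and at an unadjusted p under 0.05 the count was 0. Both groups are colorectal cancer lines, so low values of these markers cannot test where the EPAS1 RNA came from.

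ARNT, the partner that both alpha subunits need, had 6.88, 6.84 and 6.97 in SW620 and 6.95, 7.15 and 6.97 in SW480. The arrays overlapped, and the difference of -0.13 did not pass limma's test (95% confidence interval -0.32 to 0.06; adjusted p = 0.306). That interval leaves room for a fall to 80.1% of the SW480 value but not for a change of the size seen in EPAS1. EGLN3, the prolyl hydroxylase that is itself induced by HIF, had 4.34, 4.35 and 4.43 in SW620 and 4.57, 4.42 and 4.37 in SW480. These values overlap and lie somewhat above the median feature in both lines. The difference was -0.07 (95% confidence interval -0.26 to 0.11; limma adjusted p = 0.565).

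ANKRD37, a small ankyrin repeat protein known as a direct HIF-1 target, had 5.29, 5.50 and 5.20 in SW620, against 7.01, 6.95 and 6.89 in SW480. No arrays overlapped, and the difference was -1.61 (standard error 0.095; limma adjusted p = 2.53e-08), or 3.06-fold lower. NDRG1, a stress-responsive protein that is a standard marker of hypoxic cells, had 4.09, 4.13 and 3.82 in SW620, against 5.49, 5.59 and 5.42 in SW480. Its arrays did not overlap either. The difference was -1.48 (standard error 0.099; adjusted p = 8.77e-08, limma), or 2.79-fold lower, with the SW620 mean of 4.01 just below the median feature. EPAS1, ANKRD37 and NDRG1 were the 3 of the 9 genes that fell by at least 2-fold, a size reached in that direction by 3.76% of all genes and in either direction by 6.07%.

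BNIP3L, also called NIX, an outer membrane receptor that delivers mitochondria to autophagy, had 6.73, 6.60 and 6.54 in SW620, against 7.24, 7.32 and 7.30 in SW480. The fall was smaller but without overlap, -0.66 (standard error 0.085; limma adjusted p = 4.36e-05), or 1.58-fold. MXI1, a repressor that competes with MYC for the partner MAX, had 4.86, 5.06 and 4.80 in SW620 and 5.86, 5.60 and 5.52 in SW480 on its brighter feature. This difference was -0.75 (standard error 0.107; adjusted p = 9.49e-05, limma), or 1.69-fold lower.

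The further feature of MXI1 gave another answer. It had 4.27, 4.51 and 4.19 in SW620 and 4.23, 4.30 and 4.31 in SW480, and the arrays overlapped. Tested among all 16098 named features, of which 34.2% passed, it differed by 0.04 (95% confidence interval -0.17 to 0.25; limma adjusted p = 0.799). The mean of both features fell by 0.36 (adjusted p = 0.00937, limma). Feature numbers follow the genome by chromosome and strand. MXI1 lies on the plus strand, and of the 10 named features on each side of its brighter feature 16 belong to plus-strand genes and 1 to a minus-strand gene, whereas around the further feature 15 belong to minus-strand genes and 0 to plus-strand genes. Whether the further feature reads the opposite strand was not tested.

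PGK1, the glycolytic phosphoglycerate kinase and a classical HIF target, had 8.04, 8.12 and 8.22 in SW620, against 7.75, 7.79 and 7.71 in SW480. The arrays did not overlap, and the rise was 0.38 (standard error 0.085; limma adjusted p = 0.00322), or 1.30-fold. PGAM1, the phosphoglycerate mutase that acts just after it, had 7.03, 6.82 and 6.98 in SW620 and 6.86, 6.53 and 6.47 in SW480. One SW480 array lay within the SW620 range, and the difference of 0.32 (standard error 0.111; limma adjusted p = 0.0367) was the weakest of the 7. It missed the threshold without SW620 replicate 1 (0.28, adjusted p = 0.117), without SW620 replicate 3 (0.31, 0.0869), without SW480 replicate 2 (0.28, 0.127) and without SW480 replicate 3 (0.25, 0.148). Neither rise passed limma's test against a minimum of 1.2-fold (adjusted p = 0.406 for PGK1 and 0.984 for PGAM1).

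The feature named PGAM1 also stands out of place. The gene lies on chromosome 10, yet all 20 of the named features nearest to it by number belong to genes of chromosome 12. For 97.9% of 16078 named features at least 10 of the 20 nearest lay on their own gene's chromosome, and for the features of the other 8 measured genes all 20 did. PGAM1 and PGK1 both have near-identical copies elsewhere in the genome, and whether the PGAM1 feature reads such a copy was not tested.

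**Figure D3:**
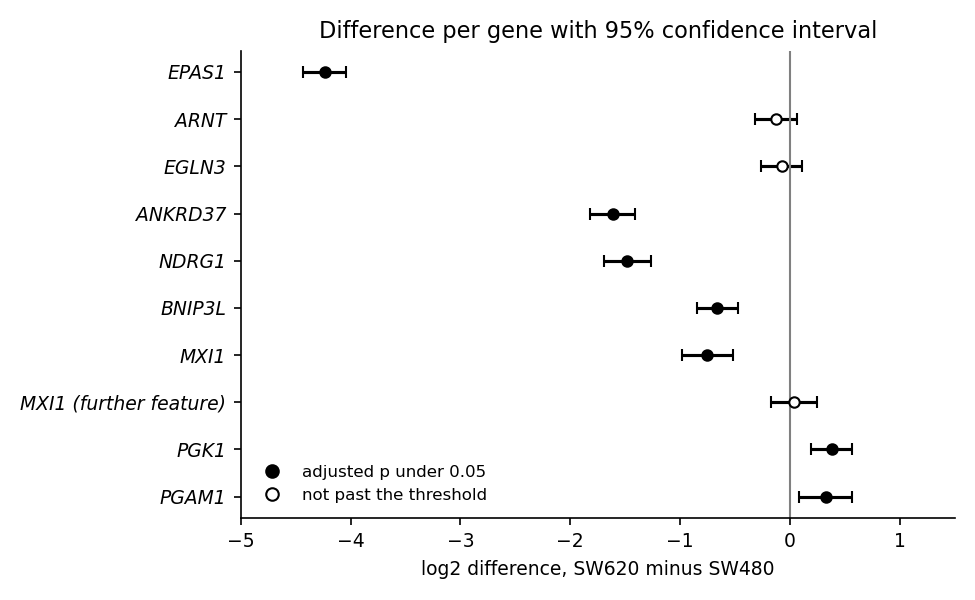
Log2 difference (SW620 minus SW480) of each measured gene with its 95% confidence interval from limma. EPAS1 at -4.24 stands apart, ANKRD37, NDRG1, MXI1 and BNIP3L lie between -1.61 and -0.66, and the further feature of MXI1, ARNT and EGLN3 cross 0.

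Genes near EPAS1 on chromosome 2 were counted by direction. On the side before it the nearest measured gene, SRBD1, averaged 7.09 ± 0.11 in SW620 and 7.06 ± 0.14 in SW480, a difference of 0.04 (adjusted p = 0.809, limma).

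Of the 5 measured genes before EPAS1 none passed limma's test, and 1 of them had an unadjusted p under 0.05. Of the 5 measured genes after EPAS1 3 fell and 1 rose, so that 4 of these 10 neighbours passed. With 10 measured genes on each side, a window chosen after seeing the data, 0 rose and 1 fell before EPAS1 and 2 rose and 6 fell after it, against 19.5% lower and 16.0% higher over all genes. The dim non-coding LINC01119, 1 of the 2 that rose (0.26, adjusted p = 0.0293, limma) and picked with its values known, missed the threshold without SW620 replicate 1 and without SW480 replicate 2 or 3.

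The HIF subunits belong to the bHLH-PAS family of transcription factors, which also holds the clock and dioxin receptor genes. Of 13 measured members of this family limma's test called 5 lower and 1 higher in SW620 and left 7 uncalled (46.2% called, against 35.6% of all genes), with a median of -0.15 against 0.01 over all genes. After EPAS1, the largest falls were in SIM2, a repressor active in development (-0.73; 3.96 ± 0.03 in SW620 and 4.68 ± 0.03 in SW480), in CLOCK (-0.64; 8.45 ± 0.03 and 9.10 ± 0.04 in the same order) and in its partner BMAL1 (-0.52). The dioxin receptor AHR fell by 0.40 and ARNT2, a paralog of ARNT, rose by 0.39, both named here after their values were seen. HIF3A was not measured.

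Of 9 measured genes that sense oxygen or control HIF proteins, 2 rose, 0 fell and 7 did not pass (22.2% called, against 35.6% of all genes), with a median of 0.10. The ubiquitin ligase SIAH1, which acts on prolyl hydroxylases, rose by 0.46 (adjusted p = 0.00221, limma). The coactivator EP300 rose by 0.33 (adjusted p = 0.0146), a call lost without SW620 replicate 3 (0.24, adjusted p = 0.0562) or SW480 replicate 2 (0.31, adjusted p = 0.0529). EGLN1, the main oxygen sensor and named after its values were seen, averaged 6.71 ± 0.05 in SW620 and 6.63 ± 0.04 in SW480, which did not pass. VHL and EGLN2 were not measured.

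Of 17 listed genes known as targets of HIF-2 alpha 9 were measured, and SLC11A2, SLC40A1 and TFRC were among those that were not. Of the 9 measured genes 5 were called lower in SW620, 0 higher and 4 missed the threshold. Over all genes 19.5% fell. The list median was -0.34. CYBRD1, a ferric reductase of the gut surface, had 5.25, 5.41 and 5.01 in SW620, against 7.62, 7.69 and 7.66 in SW480. No arrays overlapped, and the difference of -2.43 (standard error 0.102; limma adjusted p = 9.97e-10) was 5.40-fold. CCND1, the G1 cyclin D1, had 7.44, 7.35 and 7.44 in SW620, against 8.63, 8.63 and 8.57 in SW480, 2.29-fold lower. The growth factor PDGFB and the membrane protease MMP14 were 1.73-fold and 1.64-fold lower. The vascular receptor gene FLT1 fell by 0.34, and EPO, the hormone first tied to HIF, averaged 4.07 ± 0.08 in SW620 and 3.99 ± 0.08 in SW480 and did not pass. Both were named after their values were seen.

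A further list of hypoxia-induced genes leaves out glycolysis genes, so PGK1 and PGAM1, which rose, are not in it. Of its 35 genes 22 were measured, and CA9, P4HA1 and PLOD2 were among those that were not. Of the 22 measured genes 11 were called lower in SW620 and 0 higher, 11 missed the threshold, and the list had a median of -0.27. Of all genes 19.5% were lower, and 27.4% of those at least as bright as the median feature on average over both lines. This list holds ANKRD37, NDRG1, MXI1, BNIP3L and EGLN3, so 7 of the 11 falls were in other genes. The nuclear receptor RORA, with 4.69, 4.46 and 4.36 in SW620 and 5.71, 5.58 and 5.77 in SW480, was 2.27-fold lower. INSIG2, which holds back sterol synthesis, was 2.15-fold lower, with 6.09, 6.32 and 6.46 in SW620 and 7.39, 7.30 and 7.48 in SW480. The others that fell were KDM3A, STC2, ADM, WSB1 and DDIT4, all 5 named after their values were seen. Differences were -0.64 for the histone demethylase KDM3A, -0.69 for the secreted glycoprotein STC2 and -0.55 for the peptide hormone ADM. For the ubiquitin ligase adaptor WSB1 and the mTOR inhibitor DDIT4 they were -0.44 and -0.34 (adjusted p for DDIT4 = 0.0156, limma). Without SW480 replicate 1 and at an adjusted p of 0.01, 10 of the 11 falls were called. Against a minimum of 1.2-fold 9 were called. Some of the best-known hypoxia markers did not pass the test. VEGFA, the vessel growth factor, had 5.37, 5.65 and 5.54 in SW620 and 5.53, 5.67 and 5.65 in SW480 (difference -0.09, adjusted p = 0.503, limma). ANGPTL4, CA12 and BNIP3 differed by 0.16, 0.10 and 0.11 and did not pass. BNIP3 averaged 3.86 ± 0.19 in SW620 and 3.75 ± 0.12 in SW480, below the median feature in both lines. VEGFA, ANGPTL4, CA12 and BNIP3 were named after their values were seen.

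Of 24 listed glycolysis genes only 8 were measured, of which 2 rose, 1 fell and 5 did not pass, with a median of 0.07; the 37.5% called is near the 35.6% of all genes. The 2 that rose were PGK1 and PGAM1. GPI, which interconverts the phosphates of glucose and fructose, fell by 0.43 (9.15 ± 0.05 in SW620 and 9.58 ± 0.08 in SW480; adjusted p = 0.00125, limma). LDHA and HK2, named after their values were seen, differed by 0.06 and 0.04.

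Among relatives of the falling genes the changes went both ways. Of 11 measured genes of the MYC, MAX and MXD network 4 fell and 2 rose (54.5% called, against 35.6% of all genes), with a median of -0.08. Only 2 fell when any 1 of the 6 arrays was left out or with centring on the 75th percentile. MYC itself and MLXIPL, named after their values were seen, fell by 0.25 and 0.26 (adjusted p = 0.0286 and 0.0358, limma). Besides MXI1, MXD3 fell by 0.27 on its brighter feature, while MXD1 and MXD4, repressors of the same kind as MXI1, rose by 0.53 and 0.48. The call of MXD3 (adjusted p = 0.0249, limma) rests on that feature and on single arrays. The brighter feature lies among 17 named features of plus-strand genes and 0 of minus-strand genes, whereas MXD3 is on the minus strand, and whether it reads the opposite strand was not tested. The further feature of MXD3 differed by -0.06 and the mean of both by -0.17 (adjusted p = 0.218), and it missed the threshold without SW620 replicate 1 (-0.27) or 3 (-0.23) and without SW480 replicate 1 (-0.27) or 2 (-0.24).

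Of 16 measured mitophagy receptors and adaptors, 6 fell, 4 rose and 6 did not pass (62.5% called, against 35.6% of all genes), with a median of -0.07. Only 2 rose without SW620 replicate 2, without SW480 replicate 3 and at an adjusted p of 0.01. The autophagy proteins GABARAPL1 and GABARAPL2, close relatives, went opposite ways. GABARAPL1 had 3.94, 4.21 and 3.76 in SW620, against 5.69, 5.54 and 5.36 in SW480, 2.95-fold lower. GABARAPL2 had 9.61, 9.70 and 9.60 in SW620, against 8.43, 8.25 and 8.16 in SW480, 2.56-fold higher. The adaptor CALCOCO2 fell by 0.40. Of the 4 NDRG genes, NDRG1 and NDRG4 fell and NDRG2 and NDRG3 did not pass. That is 50% called, against 35.6% of all genes, with a median of -0.21. The fall of NDRG4 (-0.35, adjusted p = 0.0162, limma) was lost without SW620 replicate 1 (-0.29) or 2 (-0.32) and without SW480 replicate 1 (-0.30) or 3 (-0.31).

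**Figure D4:**
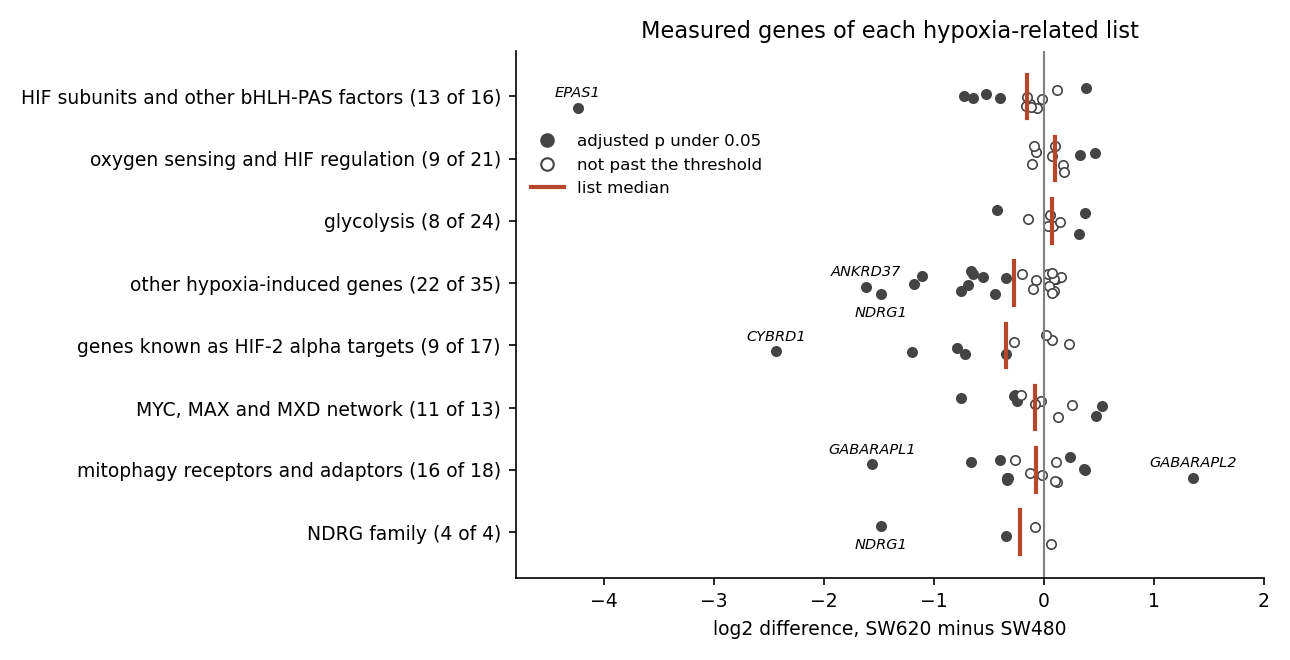
Log2 difference (SW620 minus SW480) of each measured gene in 8 lists, with the number measured of those listed; filled points passed limma's test and bars mark list medians. The list medians run from -0.34 for HIF-2 alpha targets to 0.10 for oxygen sensing genes.

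The genes whose pattern over the 6 arrays was most like that of EPAS1 were DBH, VAT1L, PARM1, KRT75 and PASD1. Their root mean square distances from EPAS1, after each gene was centred on its mean, were 0.0814, 0.111, 0.114, 0.121 and 0.131 log2 units among 11914 other protein-coding genes. All 5 were lower in SW620, with differences from -4.42 (PASD1) to -4.17 (DBH). The SW620 means of PASD1 and KRT75, like that of EPAS1, lie below the 25th percentile of all features, so their differences and distances rest on values near the floor; against that percentile they were at least 20.3-fold and 19.2-fold lower. With 2 lines this likeness reflects mainly a difference of like size.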

How the data were processed

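The data are 6 gene-level arrays of sphere cultures, 3 of SW620 and 3 of SW480. The deposited table holds log2 expression values, for which the submitters' processing notes name Partek and RMA as the tools the authors used. Base 2 is an assumption, since no source used here states it, that rests on values lying between 1.99 and 13.9. Scanner files were not used here, so background and probe filters could not be changed. The genome build of the array design is not given in the sources used here.

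Of 53616 features 16098 carried 1 gene symbol in the platform annotation, and all were matched by gene ID to current symbols. Each of 14884 genes was represented by its brightest feature, averaged over all 6 arrays. A two-sided moderated test between the lines was run with eBayes after lmFit (limma 3.58.1, R 4.3.3), adjusted over all genes by Benjamini-Hochberg at 0.05, and the script was tested on simulated data. The precision is limited by 3 arrays per line. Same-numbered arrays did not deviate together (correlations 0.0209, -0.0107 and -0.00355), so the numbers were not taken as pairs. All 10 chosen genes are named, and beside them up to 4 genes per pathway list with the largest change among those that passed, the nearest measured gene on each side of EPAS1 and the 5 genes most like it. One gene that this rule names is not reported here. Others are marked as named after their values were seen. The genes and lists were chosen with earlier results of these data known. Promoter sequences are RefSeq windows on GRCh38.p14.

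Alternatives were averaging a gene's features, repeated quantile normalization, centring on the median or the 75th percentile, leaving out features below the 25th percentile or the median, a trended robust variance, a replicate block, leaving out each array, a stricter threshold and a minimum fold.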

Additional observations from a re-analysis of the deposited data

How the results depend on the processing

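With 3 technical replicates per line the spread between cultures is unknown, and values near the floor, such as EPAS1 in SW620, limit folds. No alternative changed the direction of a measured gene of the chosen 10 on its brightest feature. A replicate block left all 7 calls and gave 5215 calls over all genes, against 5293 without it, with no other count moved by over 1.5 times. A minimum of 1.2-fold (limma's treat) left 2465 genes called of 14884 and 2560 of the named features, 5 of the chosen genes, 2 neighbours of EPAS1, 3 mitophagy genes, 1 gene each of the MYC and NDRG lists and 0 of the oxygen sensing and glycolysis lists. An adjusted p of 0.01 left 6 chosen genes, 3 MYC network genes and 1 gene each of the oxygen sensing and NDRG lists. Leaving out 1 array gave 6 to 7 chosen genes, 4590 to 4984 genes over all, and 1 to 2 genes in each of the oxygen sensing and NDRG lists. The sign turned, among values that did not pass, for the further MXI1 feature (-0.0527 without SW620 replicate 2, range -0.0527 to 0.11) and for SRBD1 (-0.0115 without SW620 replicate 2 and -0.0405 without SW480 replicate 3, range -0.0405 to 0.0962). The cause was not tested. Settings for neighbours and for single listed genes were added after seeing the data.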

Other observations

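The genes next to the other measured genes of the 9 were also counted, 5 measured genes on each side in gene order at any distance. Of all genes 19.5% fell in SW620 and 16.0% rose. Next to ANKRD37 on chromosome 4, 6 of 10 fell and 0 rose, with a median difference of -0.38. Next to MXI1 4 fell and 1 rose. Next to BNIP3L and next to PGAM1 2 fell and 1 rose in each case, and next to EGLN3 1 fell and 1 rose. Next to ARNT 0 fell and 2 rose, and next to NDRG1 and next to PGK1 0 fell and 1 rose in each case.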
